A study of Rattus norvegicus with 24 samples.

Results

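The inhibin subunit genes Inha, Inhba and Inhbb, their binding protein gene follistatin (Fst), anti-Müllerian hormone (Amh) with its receptor (Amhr2), and the bone morphogenetic protein (BMP) receptor Bmpr1b with the secreted BMP antagonist Sostdc1 were followed in rat cumulus-oocyte complexes. These 8 genes were taken by symbol, as ligands, receptors and antagonists of the TGF-beta family in granulosa cells. They were chosen with earlier results of these data known. All 8 were on the array, out of 13161 named genes, and they were read by 9 probes out of 22226, since Inhbb had 2. A cumulus-oocyte complex is an oocyte with the cumulus cells, a kind of granulosa cell, that surround it. Complexes came from 24 sexually mature female Sprague Dawley rats, and the RNA of each rat was amplified and read on 1 single-colour bead array. The 4 groups of 6 rats were untreated controls, rats given gonadotropin-releasing hormone (GnRH), rats given GnRH and equine chorionic gonadotropin (GnRH+eCG), and rats given both and then human chorionic gonadotropin (GnRH+eCG+hCG, or hCG for short). All 3 hormone groups therefore had GnRH in common. Doses and the times between hormones and collection were not given in the sources used here.

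Inhibin is a dimer of the alpha subunit, encoded by Inha, with a beta A (Inhba) or beta B (Inhbb) subunit, whereas dimers of beta subunits alone are activins. Granulosa cells secrete inhibin, which lowers pituitary secretion of follicle-stimulating hormone, and they also make activin and follistatin, the protein that binds activin and blocks it. AMH is made by granulosa cells of small growing follicles and restrains follicle growth, and BMPs and the oocyte's own GDF9 and BMP15 act on granulosa cells through receptors that pass the signal to SMAD proteins. eCG acts mainly like follicle-stimulating hormone in the rat and promotes follicle growth, and hCG acts like the luteinizing hormone surge that triggers cumulus expansion and ovulation.

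In the RefSeq annotation of build GRCr8, Fst lies at chr2:47856345-47863670, Bmpr1b at chr2:233211525-233544344, Sostdc1 at chr6:58778623-58782797, Amh at chr7:9557451-9559867 and Amhr2 at chr7:135454517-135470183. Inha lies at chr9:84443109-84446010, Inhbb at chr13:33083671-33089373 and Inhba at chr17:53787159-53810942. These positions are those of the genes, and the probes were not placed on this build.

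The sequence upstream of the genes could be read for 5 of the 8 in RefSeq's promoter table (build GRCr8), which held no entry matched to Fst, Bmpr1b or Sostdc1. The 250 bases before the annotated start were searched on both strands for the cAMP response element TGACGTCA, its shorter core TGACG, the nuclear receptor site AAGGTCA and the SMAD binding element GTCTAGAC. Among 33469 promoters of this length, 1.59% held TGACGTCA, 18.22% TGACG (matches within TGACGTCA included), 3.99% AAGGTCA and 0.17% GTCTAGAC. Both promoters that held a match are shown, 5′ to 3′ on the gene's strand, with the match in capitals. The first belongs to Inha, whose signal was much alike in the 4 groups, and the second to Amh, which fell. The Inha window lies at chr9:84442859-84443108 (plus strand), and its TGACG match is on the opposite strand and so reads CGTCA, from 117 to 113 bases before the start. The Amh window lies at chr7:9559868-9560117 (minus strand), and its AAGGTCA is on the gene's strand, from 84 to 78 bases before the start.
Inha: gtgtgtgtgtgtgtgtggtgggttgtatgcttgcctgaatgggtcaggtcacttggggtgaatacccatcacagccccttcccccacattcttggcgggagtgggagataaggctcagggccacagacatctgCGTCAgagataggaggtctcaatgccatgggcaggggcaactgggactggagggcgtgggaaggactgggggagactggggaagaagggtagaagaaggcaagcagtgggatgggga
Amh: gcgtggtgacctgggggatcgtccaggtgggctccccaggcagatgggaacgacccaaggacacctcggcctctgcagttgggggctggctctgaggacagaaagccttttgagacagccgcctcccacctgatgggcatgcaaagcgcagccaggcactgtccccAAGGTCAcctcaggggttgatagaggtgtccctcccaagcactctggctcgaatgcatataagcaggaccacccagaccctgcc
No match was found in these letters for Inhba, Inhbb or Amhr2. For Inhba and Amhr2 the annotated start of the table lies inside the annotated span of the gene. G and C made up 58.4% of the Inha window, 62.4% of the Amh window, 43.6% of the Inhba window and 40.4% of the Amhr2 window. The median over all promoters was 51.2%. The annotated start of Inhbb in the table falls at the letters ATG, so its window may hold transcribed bases and its composition is not given. A match in letters is a description, and no binding was measured.

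Signals are given as log2 intensity after background correction and quantile normalization, and a probe counted as detected on an array at a detection p under 0.01. A probe was tested if it was detected on at least 6 of the 24 arrays, which 8082 of 22226 probes were, and all 9 probes of the 8 genes passed. Detected probes made up 25.3% to 37.9% of an array. The number of arrays limits the precision. Over all tested probes the leading principal component held 49.6% of the variance. The 6 hCG arrays lay at 41 to 49.8 on it, GnRH rats 5 and 16 at 19.7 and 19, and the other 16 arrays at -34.2 to 4.1. Rats 5 and 16 thus stood apart from their own group, and differences from the GnRH group are also given without them, after the single genes. Rats 1 to 12 and rats 13 to 24 each held 3 rats of each group, and values within each set are given for the hCG step. In bulk RNA, fewer cells of a type and less RNA per cell cannot be told apart.

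The main change was at the hCG step. Relative to GnRH+eCG, 5 of the 8 genes fell at an adjusted p under 0.05 (limma, Benjamini-Hochberg over 8082 probes) and 0 rose (0 at an unadjusted p under 0.05 in that direction). Inhbb, Sostdc1, Bmpr1b, Amhr2 and Amh were the ones that fell, by 2.12- to 5.54-fold. Inha, Inhba and Fst did not pass. Of all tested probes 39.8% passed in this comparison, 22% as lower and 17.8% as higher. The median log2 difference was -1.35 over the 8 genes and -0.04 over all tested probes. Because the 8 genes were chosen with earlier results known, these counts and medians describe them and do not test the family. The hCG group was also set against the other groups, and these comparisons share its 6 arrays. Against control, 6 of 8 genes were lower, with 51.9% of all probes passing (27.5% lower), and against GnRH alone 6 of 8 were lower, with 38% passing (20.5% lower). Fst was the added gene in both. The medians of the 8 genes were -1.97 and -1.28, with -0.04 over all probes each time. In 4 of the 8 genes every hCG rat lay below every GnRH+eCG rat, a separation in that direction that 11.1% of all tested probes showed. Against control this held for 5 genes (12.7% of all probes) and against GnRH for 4 (8.59%).

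**Figure D1:**
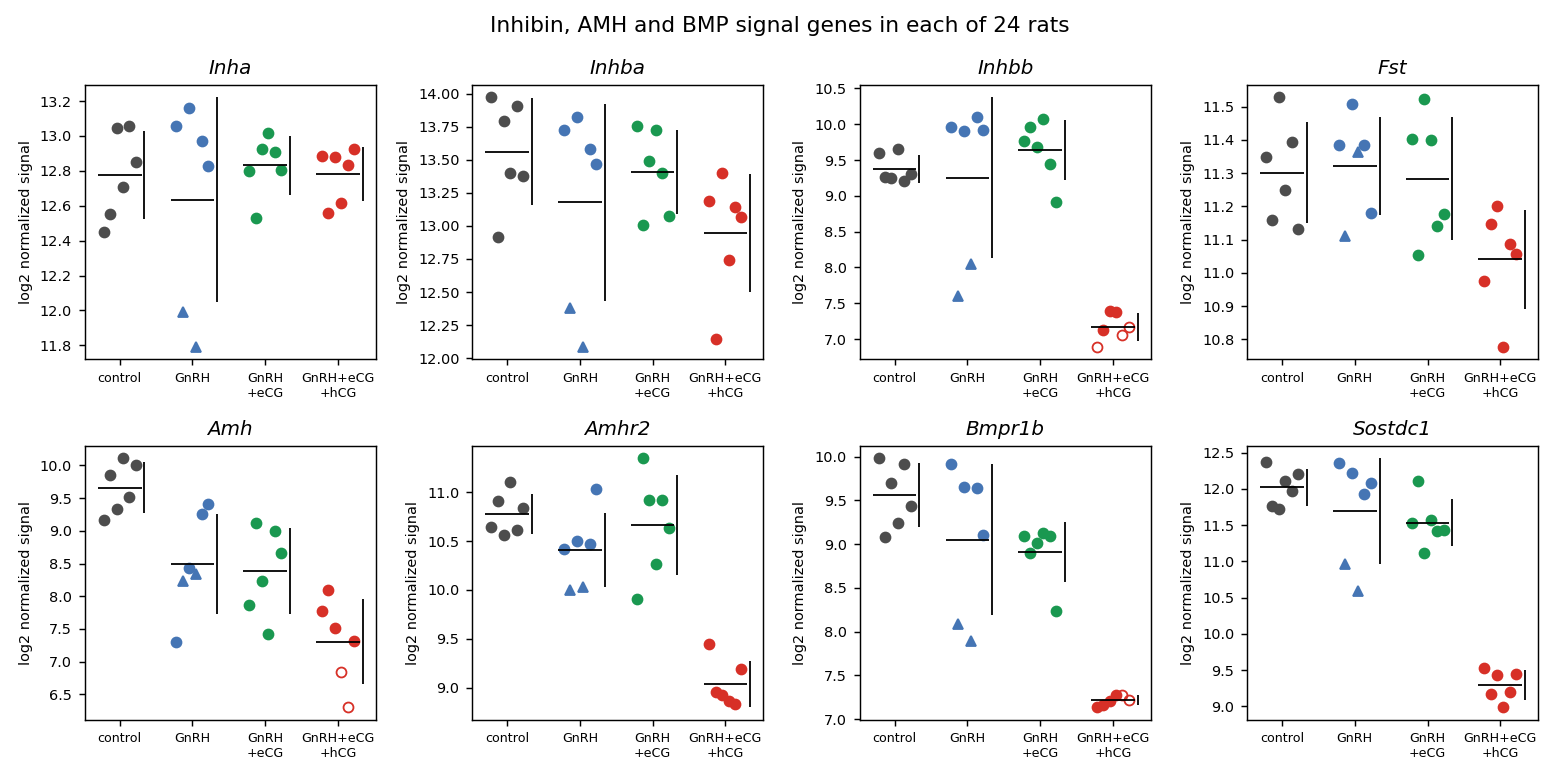
Log2 signal (y axis) of the brightest probe of each of the 8 genes in every rat of the 4 hormone groups (x axis), with a horizontal line at the group mean, a vertical line of 1 SD on each side, triangles for GnRH rats 5 and 16 and open symbols for arrays where the probe was not detected. Inhbb, Amhr2, Bmpr1b and Sostdc1 have all 6 hCG rats below all rats of the other groups, while the group means of Inha lie between 12.63 and 12.83.

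Among the inhibin and activin subunits, Inhbb fell at the hCG step and Inha did not pass the test. Inha, the subunit common to all inhibins, had a signal of 12.45 to 13.05 (median 12.78) in control, 11.79 to 13.16 (median 12.90) in GnRH, 12.53 to 13.02 (median 12.86) in GnRH+eCG and 12.56 to 12.93 (median 12.86) in hCG. The 4 groups overlapped, and the lowest values were those of GnRH rats 16 and 5. hCG minus GnRH+eCG was -0.05 (SE 0.19, adjusted p = 0.864 in limma), with a 95% confidence interval of -0.44 to 0.34. The largest of the 6 differences between groups for Inha was the 0.20 between GnRH+eCG and GnRH.

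Inhbb, the beta B subunit of inhibin B and activin B, had a signal of 9.21 to 9.65 (median 9.28) in control, 7.60 to 10.1 (median 9.91) in GnRH, 8.92 to 10.07 (median 9.73) in GnRH+eCG and 6.90 to 7.39 (median 7.15) in hCG. All 6 hCG rats were below all 18 others, and the probe was detected in 3 of the 6. Inhbb was 5.54-fold lower in hCG than in GnRH+eCG (log2 difference -2.47, SE 0.33, adjusted p = 4.95e-06), 4.62-fold lower than in control (-2.21, adjusted p = 1.04e-05) and 4.24-fold lower than in GnRH (-2.08, adjusted p = 3.8e-05). Only 4 of the 8082 tested probes had a more negative difference between hCG and GnRH+eCG. The second Inhbb probe, which was dimmer, was detected on 15 of the 18 arrays without hCG and on 0 of the 6 with it. For its folds, hCG values under the lowest detected signal of their array were raised to it. It was at least 2.96-fold lower than in GnRH+eCG (adjusted p = 0.000467), where all 6 arrays detected it. The fold was 2.61 lower than in control (adjusted p = 0.000837) and 2.53 lower than in GnRH (adjusted p = 0.00184). The latter folds are not strict bounds, since 5 of 6 control and 4 of 6 GnRH arrays detected it. By this probe 5 of 6 hCG rats lay below all GnRH rats. Both probes thus went the same way in all 3 comparisons. The order of group means was GnRH+eCG, control, GnRH, hCG, and the upper 3 did not differ beyond their spread.

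Inhba, the beta A subunit, had group means of 13.56 ± 0.40 (SD, n = 6) in control, 13.18 ± 0.75 in GnRH, 13.41 ± 0.32 in GnRH+eCG and 12.95 ± 0.45 in hCG. The hCG values, 12.14 to 13.40, overlapped every other group. hCG minus GnRH+eCG was -0.46 (SE 0.27, adjusted p = 0.185), and hCG minus control was -0.61 (adjusted p = 0.0649). With GnRH rats 5 and 16 left out of the fit, the difference from control had an adjusted p of 0.0129, and the difference from the remaining GnRH rats was -0.70 (adjusted p = 0.0139) in place of -0.23 (adjusted p = 0.534).

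Whether the subunits shifted relative to each other was tested within arrays, by an exact two-sided permutation test of the log2 difference between 2 subunits in each rat. Such a difference has no meaning as a level, because the probes differ, and only its shift between groups is read. Inhbb relative to Inha went from -3.19 ± 0.45 (SD, n = 6) in GnRH+eCG to -5.61 ± 0.28 in hCG, a shift of -2.42 (exact permutation p = 0.00216, the smallest possible with 6 against 6, and 0.00649 after adjustment over 6 tests). Inhbb relative to Inhba went from -3.77 ± 0.39 to -5.78 ± 0.48, a shift of -2.01 (exact permutation, adjusted p = 0.00649). In both, all 6 hCG rats lay below all 6 GnRH+eCG rats. Inhba relative to Inha shifted by -0.42, from 0.58 ± 0.24 to 0.16 ± 0.32 (exact permutation, adjusted p = 0.0433), and 3 of 6 hCG rats lay below all GnRH+eCG rats. That last call was lost when any of 8 of the 12 rats was left out (GnRH+eCG rats 7, 8, 9, 19 and 20, hCG rats 11, 22 and 24), with adjusted p of 0.0563 to 0.0952. From control to GnRH+eCG the same 3 differences shifted by 0.21, 0.41 and -0.20, with adjusted p of 0.416, 0.166 and 0.403 by the same exact test.

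**Figure D2:**
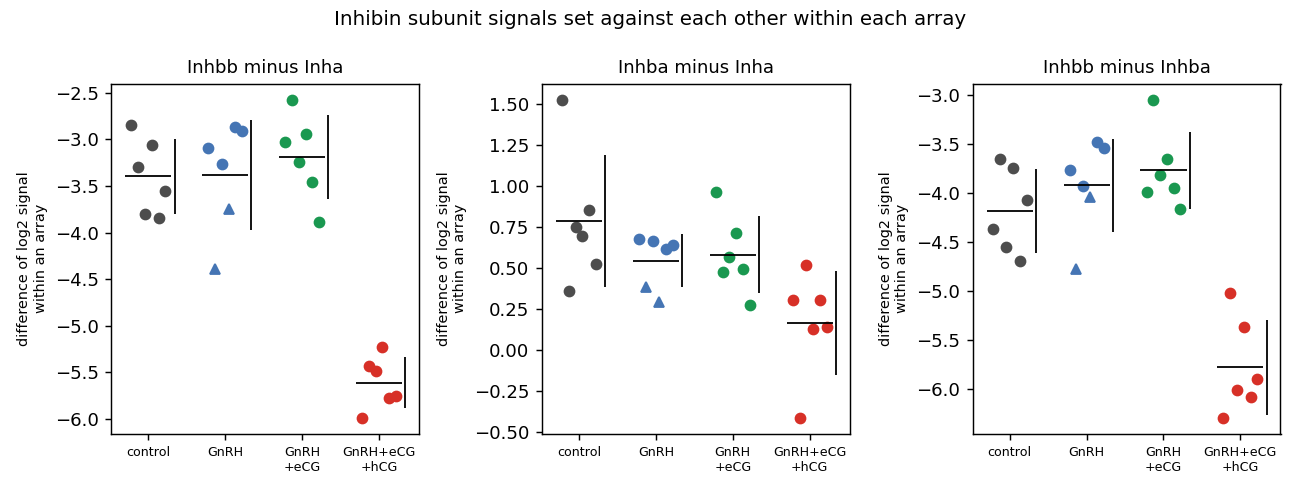
Log2 signal of 1 inhibin subunit minus that of another on the same array (y axis) in every rat of the 4 groups (x axis), with a horizontal line at the mean, a vertical line of 1 SD on each side and triangles for GnRH rats 5 and 16. Inhbb minus Inha has a mean of -5.61 in hCG and -3.19 in GnRH+eCG, with no overlap, while Inhba minus Inha overlaps between these groups.

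Fst, which binds and blocks activin, had a narrow range. Its group means were 11.30 ± 0.15 (SD, n = 6) in control, 11.32 ± 0.15 in GnRH, 11.28 ± 0.18 in GnRH+eCG and 11.04 ± 0.15 in hCG. It was lower in hCG by 0.26 on the log2 scale than in control (adjusted p = 0.0353) and by 0.28 than in GnRH (adjusted p = 0.0321), and the difference from GnRH+eCG was -0.24 (SE 0.10, adjusted p = 0.0614). These calls were weak. Scaling each array to its median without quantiles gave adjusted p of 0.248 and 0.156, and the call against control was lost without control rat 1, 3 or 14 or hCG rat 10, 22 or 24 (adjusted p up to 0.0986) and the call against GnRH without GnRH rat 4, 6 or 17 or hCG rat 10 or 22 (adjusted p up to 0.0897). The call against control was also lost with only those groups fitted (adjusted p = 0.0551) and within each set of rats (0.356 and 0.128), and the call against GnRH within each set (0.449 and 0.102). The call against GnRH+eCG was gained with array weights (adjusted p = 0.0035), with an intensity trend in the variance model (0.0436), and without GnRH+eCG rat 8 (0.0342) or hCG rat 12 (0.0494). The weighted hCG mean rested largely on hCG rat 24, whose weight was 13.4 where other arrays had 0.33 to 1.76.

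Amh was lower at the hCG step and had lower values already in the GnRH and GnRH+eCG groups. Its signal was 9.16 to 10.11 (median 9.68) in control, 7.30 to 9.41 (median 8.39) in GnRH, 7.43 to 9.13 (median 8.45) in GnRH+eCG and 6.30 to 8.10 (median 7.41) in hCG, where it was detected in 4 of 6. The hCG values overlapped those of GnRH and GnRH+eCG but lay below all control values. Amh was 5.12-fold lower in hCG than in control (log2 difference -2.36, adjusted p = 6.88e-06), 2.28-fold lower than in GnRH (-1.19, adjusted p = 0.0081) and 2.12-fold lower than in GnRH+eCG (-1.08, SE 0.34, adjusted p = 0.0148). All 6 GnRH+eCG rats and 4 of 6 GnRH rats were below all 6 control rats. The share of all probes with at least 4 GnRH rats below every control was not counted. All 6 GnRH rats were below every control in 0.0495% of probes, a stricter order that Amh did not show. GnRH+eCG minus control was -1.28 (SE 0.34, adjusted p = 0.083), so that step did not pass, and a complete separation was shown by 0.421% of all probes there. Without GnRH+eCG rat 8 that difference was -1.42 and passed (adjusted p = 0.0386). GnRH minus control was -1.17 (adjusted p = 0.377), and GnRH+eCG minus GnRH was -0.11 (adjusted p = 0.992). Control was highest and hCG lowest, and GnRH and GnRH+eCG did not differ beyond their spread. The hCG step for Amh differed in size between the rat sets, at -0.62 in rats 1 to 12 (adjusted p = 0.272) and -1.55 in rats 13 to 24, and against GnRH it was -0.19 (adjusted p = 0.775) and -2.19. The difference between the sets was not tested.

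Amhr2, the receptor that binds AMH, had a signal of 10.56 to 11.10 (median 10.74) in control, 10.00 to 11.03 (median 10.44) in GnRH, 9.91 to 11.35 (median 10.78) in GnRH+eCG and 8.84 to 9.45 (median 8.94) in hCG. All 6 hCG rats were below all 18 others, and the probe was detected on all 24 arrays. The fall was 3.09-fold against GnRH+eCG (log2 difference -1.63, SE 0.20, adjusted p = 1.44e-06), 3.34-fold against control (adjusted p = 3.08e-07) and 2.58-fold against GnRH (adjusted p = 1.23e-05). Its means in the 3 groups without hCG lay within 0.37 of each other, and none of those differences passed.

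Bmpr1b, a type I receptor for BMPs and related ligands, had a signal of 9.09 to 9.98 (median 9.57) in control, 7.90 to 9.91 (median 9.37) in GnRH, 8.24 to 9.13 (median 9.05) in GnRH+eCG and 7.13 to 7.28 (median 7.21) in hCG. All hCG rats were below all others, in a range close to background, with detection in 4 of 6. It was 3.24-fold lower in hCG than in GnRH+eCG (log2 difference -1.70, SE 0.27, adjusted p = 4.09e-05), 5.09-fold lower than in control (adjusted p = 3.83e-07) and 3.57-fold lower than in GnRH (adjusted p = 1.58e-05). GnRH+eCG minus control was -0.65 (adjusted p = 0.254), and it passed when GnRH rats 5 and 16 were left out of the fit (adjusted p = 0.0418). In that fit 2.31% of all probes passed between GnRH+eCG and control, against 0.421% with all arrays.

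Sostdc1, a secreted protein that binds BMPs and also interferes with Wnt signalling, had a signal of 11.72 to 12.37 (median 12.04) in control, 10.60 to 12.36 (median 12.01) in GnRH, 11.12 to 12.11 (median 11.48) in GnRH+eCG and 8.99 to 9.52 (median 9.31) in hCG. No hCG value reached the lowest value of another group, and the gap was more than 1 log2 unit. It was 4.72-fold lower in hCG than in GnRH+eCG (log2 difference -2.24, SE 0.24, adjusted p = 1.88e-07), 6.63-fold lower than in control (adjusted p = 5.95e-09) and 5.27-fold lower than in GnRH (adjusted p = 6.27e-08). It was detected on all 24 arrays, and it ranked among the 8 most negative of the 8082 probes in each of these comparisons.

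**Figure D3:**
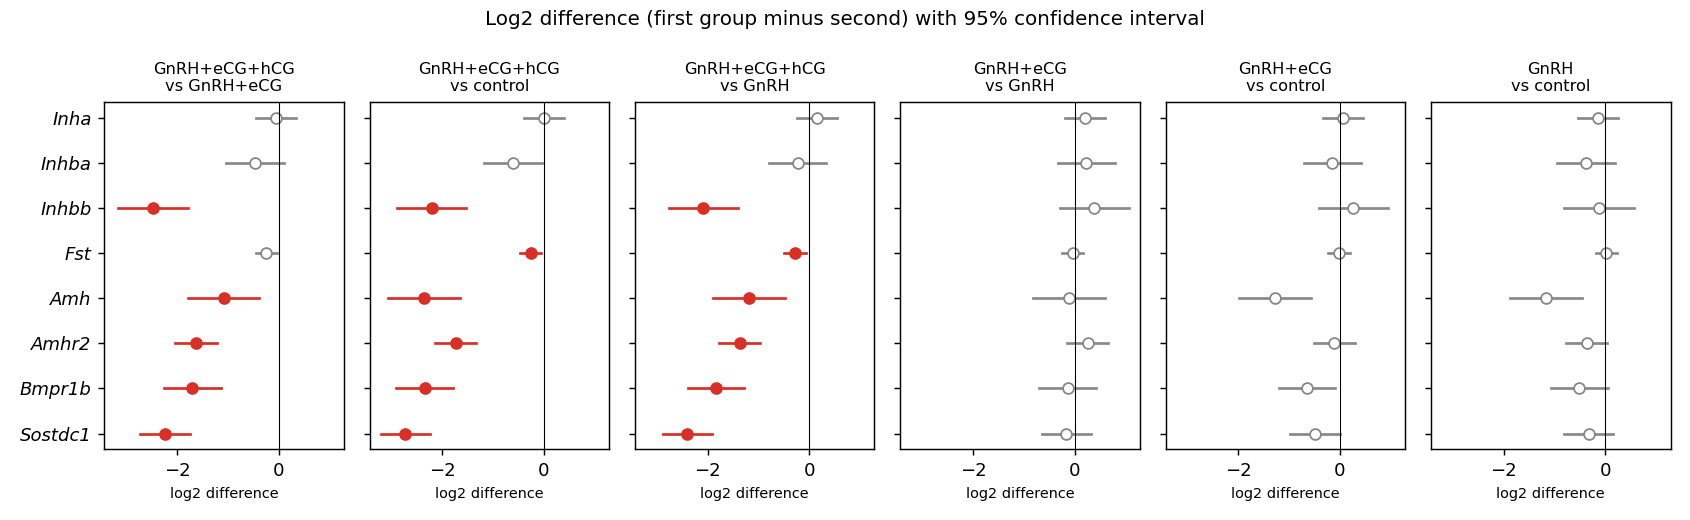
Log2 differences between hormone groups (x axis) for the 8 genes (y axis), with bars for the 95% confidence interval and filled points where the adjusted p is under 0.05. The 5 genes that fell from GnRH+eCG to hCG lie between -1.08 and -2.47, and no interval for Inha in the hCG comparisons leaves 0.

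Within the sets of rats, the hCG step kept its direction and size for the other 4 genes that fell. In rats 1 to 12 and rats 13 to 24 the log2 difference from GnRH+eCG was -2.67 and -2.27 for Inhbb, -2.21 and -2.27 for Sostdc1, -1.83 and -1.56 for Bmpr1b, and -1.61 and -1.64 for Amhr2. All of these passed within each set. For the 3 genes that did not pass, the values were -0.51 and -0.42 for Inhba, -0.22 and -0.26 for Fst, and 0.02 and -0.12 for Inha.

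Before hCG, none of the 8 genes passed the limma test in any comparison. At an unadjusted p under 0.05, 0 differed between GnRH+eCG and GnRH, 3 between GnRH+eCG and control (Amh, Bmpr1b and Sostdc1, all lower) and 1 between GnRH and control (Amh, lower). Of all 8082 probes, 431, 1242 and 961 were under that unadjusted threshold in the same comparisons. After adjustment 0% passed between GnRH+eCG and GnRH, 0.421% between GnRH+eCG and control, and 0% between GnRH and control. Sostdc1 was at -0.49 in GnRH+eCG against control (adjusted p = 0.321).

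For 6 of the 8 genes, GnRH rats 5 and 16 both lay below the other 4 GnRH rats. The share of all probes with this order was not counted. These rats already stood apart over all tested probes, so the count is a description only. Inhbb was 7.60 and 8.05 in rats 5 and 16, against 9.90 to 10.1 in the other 4, and Sostdc1 was 10.96 and 10.60 against 11.93 to 12.36. These Inhbb and Sostdc1 values lay between the other GnRH rats and the hCG group. Inha was 11.99 and 11.79 against 12.83 to 13.16, and Inhba 12.38 and 12.09 against 13.46 to 13.82. For Inha both rats were also below all 6 hCG rats, whose values began at 12.56. Amh, at 8.24 and 8.34, and Fst, at 11.11 and 11.36, were not both below the other GnRH rats.

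Without rats 5 and 16, 7 of the 8 genes passed in hCG against GnRH, all as lower, with 44.8% of all probes passing (24.4% lower). Sostdc1 was at -2.86 (-2.40 with both rats), Inhbb at -2.80 (-2.08), Bmpr1b at -2.36 (-1.84), Amhr2 at -1.57 (-1.37), Amh at -1.29 (-1.19) and Fst at -0.32 (-0.28). Inhba, at -0.70, passed only without them, and Inha, at -0.22 (0.15 with both), did not pass either way (adjusted p = 0.167 without them). The difference of GnRH minus control was then -1.06 for Amh (-1.17 with both rats). None of the 8 genes passed in limma between GnRH and control or between GnRH+eCG and GnRH without them, where 0% of all probes did.

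Other genes of the TGF-beta family were counted from a list of 46, of which 37 were on the array and 22 passed the detection filter. From GnRH+eCG to hCG, 4 of the 22 rose and 5 fell (18.2% and 22.7%, beside 17.8% and 22% of all probes), so the list as a whole was near the background, with a median log2 difference of -0.06. Against control 5 were higher and 9 lower (22.7% and 40.9%, beside 24.4% and 27.5% of all probes), and against GnRH 5 were higher and 6 lower (22.7% and 27.3%, beside 17.5% and 20.5%). In the 3 comparisons without hCG 0 passed in limma (2 at an unadjusted p under 0.05 in GnRH+eCG against GnRH, 4 in GnRH+eCG against control and 2 in GnRH against control).

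Of the 4 ligands measured, both oocyte ligands fell at the hCG step, Gdf9 by 1.47 (SE 0.30, adjusted p = 0.000582) and Bmp15 by 1.09 (SE 0.32, adjusted p = 0.00834) on the log2 scale. Bmp2 was at -0.08 and Bmp6 at -0.04, both close to background. Bmp2 was detected on 1 of 6 GnRH+eCG arrays and 0 of 6 hCG arrays, and Bmp6 on 1 of 6 in each group. In hCG, Bmp2 was at -1.30 against control (adjusted p = 0.00135 in limma) and -0.83 against GnRH (adjusted p = 0.0385). Of the 6 receptors and coreceptors, Tgfbr3 fell by 1.43 (SE 0.31, adjusted p = 0.000998). It encodes betaglycan, a coreceptor that binds inhibin. Tgfbr1, a type I receptor for TGF-beta, rose by 0.81 (SE 0.20, adjusted p = 0.00245). The BMP receptors Bmpr1a and Bmpr2 were at -0.16 (adjusted p = 0.264) and -0.27 (adjusted p = 0.263), and the receptors Acvr1 and Acvr2a at -0.01 and 0.11. In hCG, Bmpr2 was at -0.74 against control (adjusted p = 0.00196 in limma) and -0.65 against GnRH (adjusted p = 0.00838). Bmpr1a was at -0.30 against control (adjusted p = 0.0298) and -0.20 against GnRH (adjusted p = 0.164).

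Of the 5 antagonists, Bambi, a membrane protein that resembles a type I receptor but lacks its kinase, fell by 1.70 (SE 0.21, adjusted p = 1.35e-06). Htra1, a secreted protease that can bind TGF-beta family proteins, rose by 0.79 (SE 0.23, adjusted p = 0.00939). The follistatin-like genes Fstl1 and Fstl3 were at 0.13 and 0.08, with Fstl3 detected on only 2 of 6 arrays in each group. Nbl1 was at 0.31 (adjusted p = 0.205). In hCG, Nbl1 was at 1.03 against control (adjusted p = 0.000135 in limma) and 0.93 against GnRH (adjusted p = 0.000674). It was detected on 5 of 6 hCG arrays, 1 of 6 GnRH arrays and 0 of 6 control arrays. Of the 4 intracellular genes, Smad1 rose by 0.51 (SE 0.11, adjusted p = 0.00112) and Smad5 by 0.50 (SE 0.12, adjusted p = 0.00264), both of which carry BMP signals. Smad2, which carries activin signals, was at -0.11, and the shared partner Smad4 at -0.08. Of the 3 target genes of BMP signalling, Id3 fell by 0.71 (SE 0.22, adjusted p = 0.0126), with Id1 at -0.13 and Id2 at 0.19. Id1 was close to background, detected on 2 of 6 GnRH+eCG arrays and 1 of 6 hCG arrays.

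**Figure D4:**
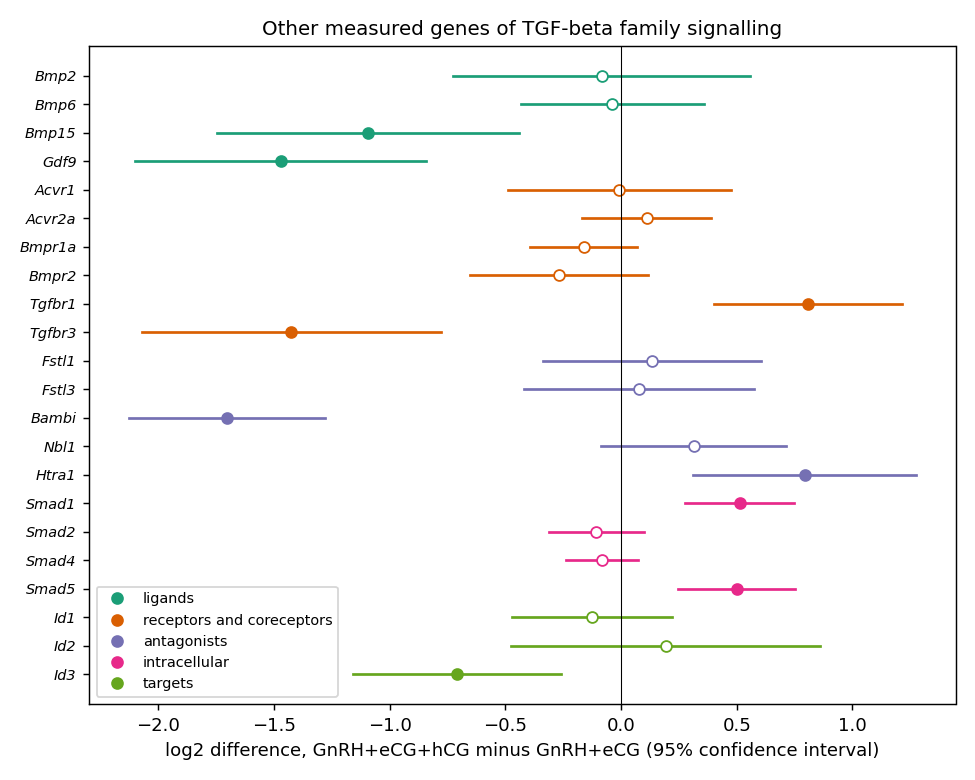
Log2 difference of hCG minus GnRH+eCG (x axis) for the 22 other TGF-beta family genes that passed the detection filter (y axis, by role), with bars for the 95% confidence interval and filled points where the adjusted p is under 0.05. Bambi, Gdf9, Tgfbr3 and Bmp15 lie between -1.70 and -1.09, and Tgfbr1, Htra1, Smad1 and Smad5 between 0.50 and 0.81.

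Cell markers that moved with the hCG group are given beside these changes. The oocyte list (7 of 10 on the array, Gdf9 and Bmp15 included) had a summed signal of 1569 to 2406 in hCG against 2838 to 10395 in GnRH+eCG and 3108 to 9721 in control, and all 6 markers tested were lower than in GnRH+eCG. The granulosa list (6 of 8 on the array, Inha and Amh included) had a summed signal of 26672 to 39923 in hCG and 32142 to 44005 in GnRH+eCG. This sum of linear signal is mostly that of Gja1, the brightest of them (mean log2 14.4 in hCG and 14.7 in GnRH+eCG). The median log2 difference of the 6 genes was -0.67, and 3 passed as lower. Besides Amh, Fshr, the receptor for follicle-stimulating hormone, fell by 0.95 (adjusted p = 0.0318) and Nr5a2, a nuclear receptor, by 0.38 (adjusted p = 0.0313), with Cyp19a1 at -1.24 (adjusted p = 0.139) and Gja1 at -0.33 (adjusted p = 0.0596). Markers from both the oocyte and the granulosa list were detected in every group.

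Markers of other cells were also read. The theca and stroma list (6 of 7) summed to 2405 to 5411 in hCG, 2164 to 4139 in GnRH+eCG and 570 to 1449 in control, and to 6900 and 5273 in GnRH rats 5 and 16 against 586 to 1878 in the other 4. Its members did not move alike at the hCG step. Cyp17a1, an androgen-making enzyme of theca cells, fell by 1.83 (adjusted p = 0.0135), and the collagen genes Col1a1, Col1a2 and Col3a1 were at 0.62 to 1.13 without passing (adjusted p of 0.0583 to 0.429). The leukocyte list (5 of 7) summed to 779 to 1865 in hCG, 481 to 1110 in GnRH+eCG and 406 to 587 in control, with Ptprc and Cd3e detected on 0 arrays, and to 1523 in GnRH rat 5 and 532 in rat 16 against 392 to 685 in the other 4. The erythrocyte list (4 of 6) was at 3728 to 5392 in hCG, 2623 to 9851 in GnRH+eCG and 1260 to 4073 in control, and the next lists are given in that order. The endothelium list (4 of 6) was at 451 to 823, 324 to 495 and 304 to 398, with Cdh5 detected on 0 arrays, and at 1080 and 306 in GnRH rats 5 and 16 against 370 to 403 in the other 4. The oviduct epithelium list (4 of 7) was at 394 to 513, 387 to 1359 and 361 to 2005, with Pax8 detected on 0 arrays, and at 640 and 930 in those rats against 369 to 562. The erythrocyte list was at 4584 and 3562 in them against 3777 to 8546, the oocyte list at 3627 and 2631 against 3615 to 6011, and the granulosa list at 32139 and 28162 against 34051 to 45453. The part of these shifts in the results above was not tested.

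The genes with the most similar pattern were found by the root mean square difference of centred log2 signals over the 24 arrays, among 5507 named genes outside the 8. These values are descriptive, since the 24 arrays share 4 groups and the hCG group moved many genes. A distance is small between any genes that vary little, so the median distance over the 5507 genes is given for each. It was 1.15 for Inhbb, 1.17 for Sostdc1, 1.01 for Bmpr1b, 0.807 for Amhr2, 1.05 for Amh, 0.456 for Inha, 0.600 for Inhba and 0.368 for Fst. For Inhbb the closest were Trib2 (0.412), Cbfa2t3 (0.454) and Bambi (0.477). For Sostdc1 they were Btbd3 (0.349), Mmp11 (0.375) and Cbfa2t3 (0.388), and for Bmpr1b RragB (0.265), Ly6g6e (0.296) and Trib2 (0.298). For Amhr2 they were Mutyh (0.276), Bambi (0.308) and Mkrn2 (0.311), so Bambi, Trib2 and Cbfa2t3 each came up for more than 1 of these genes. For Amh the closest were farther away, namely Samd13 (0.569), Adtrp (0.58) and Tdrd1 (0.581). For Inha the closest were Top1 (0.194), Prkar2b (0.199) and Tgif1 (0.214), for Inhba Slc12a4 (0.247), As3mt (0.266) and Ptpn4 (0.3), and for Fst Rps4x (0.129), Ilkap (0.13) and Itm2c (0.132). Within the 8 genes the distance of Bmpr1b from Sostdc1 was 0.389, below the spread of either over the 24 arrays (0.993 and 1.15). Inha was at 0.322 from Fst and 0.349 from Inhba, beside spreads of 0.319 for Inha, 0.184 for Fst and 0.517 for Inhba. Between genes of unlike spread the distance mixes size with pattern. It cannot decide whether these genes share a pattern, and nothing is read from it.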

How the data were processed

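RNA from the cumulus-oocyte complexes of 24 rats was read on 24 bead arrays, 1 per rat, and the labels give 6 rats to each of 4 groups. The deposited values are 1-colour intensity on a linear scale, summarised with BeadStudio per the submitters' processing notes, with the version not given in the sources used here. The deposited detection column is a fraction that rises with signal, so detection p was taken as 1 minus it. The tables of the same arrays were joined by probe ID for 21946 probes and by signal for 280. Probe genes came from the platform annotation (13518 probes with 1 symbol).

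Background correction and quantile normalization used neqc (limma 3.58.1, R 4.3.3, offset 16), which inferred background from detection p. Probes with detection p under 0.01 on at least 6 arrays were kept (8082, 36.4%). The model gave each group its own mean over 24 arrays (lmFit and eBayes, 20 residual degrees of freedom), with Benjamini-Hochberg adjustment over 8082 probes, a threshold of 0.05 and 6 comparisons. A gene was read by its brightest probe and other probes are given beside it. The fit was tested on simulated data.

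All probes of the 8 genes are reported. Of the wider list, those past the threshold from GnRH+eCG to hCG are named, and for likeness the 3 closest genes to each. The genes and lists were chosen with earlier results of these data known. Promoter motifs are reported for the 250 bases before the start, and the transcribed bases after it were left out. Alternatives were other normalizations, offset, filters, variance model, array weights, samples in the fit, threshold, rat sets, probe choice, and leaving out arrays.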

Additional observations from a re-analysis of the deposited data

Results flagged for a closer look

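In groups of 6, the highest or lowest rat was compared with its nearest neighbour, and 2 of 36 sets of values had a rat set apart, where chance gives about 1 in 20. For Bmpr1b, GnRH+eCG rat 21 was lowest at a log2 signal of 8.24, where the next was 8.89 and the highest 9.13. For the second Inhbb probe, hCG rat 22 was highest at 6.71, where the next was 6.46 and the lowest 6.32, and the probe was detected on none of these 6 arrays.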

How the results depend on the processing

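Inhbb, Sostdc1, Bmpr1b and Amhr2 kept their direction and their call in all 3 hCG comparisons under every alternative run. Amh kept its direction, and its hCG call was lost against GnRH+eCG and GnRH in rats 1 to 12 (given above) and against GnRH+eCG at a threshold of 0.01. Quantile normalization without background correction gave smaller differences, such as -1.78 for Inhbb against GnRH+eCG and -1.68 for Bmpr1b and -1.76 for Amh against control. The cause was not tested. The count of genes passing between GnRH+eCG and control was 0 to 1 when single arrays were left out, 1 with array weights (Amh, -1.58, adjusted p = 0.0149) and 1 without GnRH rats 5 and 16. Without those rats 2.31% of all probes passed in that comparison, against 0.421% in the main fit. The share of all probes was not counted with array weights or with single arrays left out. Inhba passed with array weights against GnRH+eCG (adjusted p = 0.0182) and GnRH (0.0242), and against control with only those groups fitted (0.0333) or without control rat 2 (0.0313), hCG rat 12 (0.0475) or GnRH rat 16 (0.0356). The array weights were 13.4 for hCG rat 24 and 0.33 to 1.76 for the other arrays. The weighted hCG means, and the hCG calls gained with weights, thus rest largely on that rat. The shift of Inhba minus Inha was -0.37 with median scaling (adjusted p = 0.0736), -0.53 in rats 1 to 12 and -0.30 in rats 13 to 24, and -0.49 to -0.30 leaving out single arrays. Inhbb minus Inha was -2.69 and -2.16 and Inhbb minus Inhba -2.16 and -1.86 in the 2 sets, where 3 rats against 3 cannot pass an exact permutation test.

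Every change of sign was among differences that passed neither way. Inha in hCG went to 0.059 (median scaling) and 0.022 (rats 1 to 12) against GnRH+eCG, to -0.079 against control (rats 13 to 24), and to -0.014 (array weights) and -0.22 (without GnRH rats 5 and 16) against GnRH. In GnRH+eCG against GnRH, Inha, Inhba and Inhbb went to -0.013, -0.0023 and -0.033 with array weights and to -0.17, -0.24 and -0.33 without those rats, Amh to 0.42 in rats 1 to 12 and Fst to 0.011 with median scaling. In GnRH+eCG against control, Amhr2 went to 0.020 in rats 1 to 12, Fst to 0.055 with median scaling and 0.058 with array weights, and Inhba to 0.057 with array weights. In GnRH against control, leaving out rats 5 and 16 gave Inha 0.23, Inhba 0.090, Inhbb 0.59, Bmpr1b 0.015 and Sostdc1 0.13, array weights gave Inha 0.12, Inhba 0.059 and Inhbb 0.31, and rats 1 to 12 gave Inha 0.055 and Fst -0.0097. Leaving out single arrays gave Inha -0.059 to 0.062 (hCG against control), -0.019 to 0.26 (hCG against GnRH), -0.011 to 0.11 (GnRH+eCG against control) and -0.25 to 0.025 (GnRH against control). It gave Amh -0.35 to 0.082, Bmpr1b -0.37 to 0.035 and Fst -0.088 to 0.0067 (GnRH+eCG against GnRH), Amhr2 -0.25 to 0.038 and Fst -0.067 to 0.027 (GnRH+eCG against control), and Fst -0.017 to 0.066 and Inhbb -0.29 to 0.21 (GnRH against control). No paired analysis was possible because no rat number occurs in more than 1 group. Signals near background, as for Inhbb, Bmpr1b and Amh in the hCG group, limit how large a fold can be read.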
